A study of Arabidopsis thaliana with 6 samples.

Results

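Transcript levels of 5 genes of jasmonate metabolism and response were examined in Arabidopsis thaliana plants of the ceh1 mutant and of its parent line. They were OPCL1 (AT1G20510), JMT (AT1G19640), JRG21 (AT3G55970), AT5G05600 and AT1G54020. The choice was by name, with earlier results of these data known, among genes with a probe set assigned to a single gene. All 5 had exactly 1 such probe set, among 13356 genes so represented on the array. Transcripts were measured on 1-colour Affymetrix arrays with total RNA of whole plants, 3 biological replicates of ceh1 and 3 of the parent. All plants were 2 weeks old and untreated, and about 20 plants were collected. They grew on 0.5-strength Murashige and Skoog medium at 23 °C in days of 8 h light and 16 h dark. Humidity was 60% and light 100 to 150 µE for both genotypes. Both also had the same 2 days at 4 °C, which were not a treatment compared here. The mutated gene in ceh1 is known to be HDS, which encodes an enzyme of the plastid isoprenoid pathway, and ceh1 is a single mutant line. The parent, which the labels call wild type, is known as a line with a luciferase reporter driven by the HPL promoter, and ceh1 was selected from it. HDS was not among the genes with a single-gene probe set.

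Jasmonate is made from a plastid fatty acid, and its precursor OPDA moves to the peroxisome, where it is reduced and shortened by beta-oxidation. The hormone becomes active when joined to isoleucine, which brings the receptor COI1 and the JAZ repressors together and frees MYC transcription factors. Plants limit the signal by oxidising jasmonate, and they can also convert it to its methyl ester. OPCL1 activates an OPDA-derived intermediate as a CoA ester for beta-oxidation, and JMT makes methyl jasmonate. JRG21 and AT5G05600 encode oxygenases of the 2-oxoglutarate-dependent type that hydroxylate and so inactivate jasmonate. AT1G54020 encodes a lipase or esterase of the GDSL type that is known as jasmonate-induced.

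The 2 oxygenase genes and the lipase gene rose in ceh1, while OPCL1 and JMT did not pass the test. On the scale used for testing, JRG21 rose 54.5-fold, AT1G54020 36.6-fold and AT5G05600 9.80-fold, and the replicates of these 3 genes did not overlap between genotypes. Of all 15922 probe sets tested, 3.77% changed, 2.62% rising and 1.15% falling (limma, Benjamini-Hochberg adjusted p under 0.05), and 12.4% had all ceh1 arrays above all parent arrays. An unadjusted p under 0.05, counted for some lists below, was reached by 20.9% of them. The 5 genes were chosen with earlier results of these data known, so the 3 of 5 that rose are a description and not a test of the group. Samples were whole plants, so more RNA per cell and more cells of one kind cannot be told apart.

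**Figure D1:**
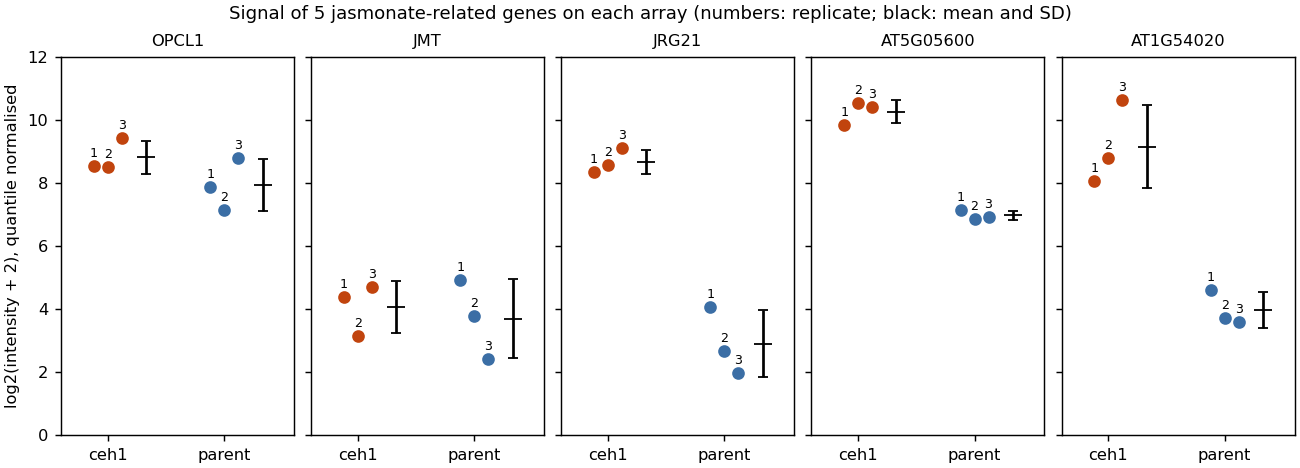
Quantile-normalised log2(intensity + 2) of OPCL1, JMT, JRG21, AT5G05600 and AT1G54020 on each array, ceh1 in orange on the left and parent in blue on the right of each panel, with the mean and SD in black (n = 3 each). The ceh1 arrays lie above all parent arrays for JRG21, AT5G05600 and AT1G54020, and the genotypes overlap for OPCL1 and JMT.

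Values below are deposited intensities on a linear scale, followed by fold changes on the scale of log2(intensity + 2) after quantile normalization. The pseudocount of 2 makes the fold change of a dim probe set smaller than the ratio of its intensities. The arrays were not at a common level. Their means after trimming 2% at each end were 131.1, 177.1 and 174.3 in ceh1 replicates 1, 2 and 3, against 172.8, 136.7 and 110.7 in the parent replicates. Without normalization the median difference of all tested probe sets was 0.21 in log2, and the calls comprised 657 rises and 61 falls, or 91.5% rises, against 417 and 183, or 69.5%, with it.

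Synthesis was represented by OPCL1. Its intensity was 327.2, 438.9 and 809.6 in ceh1 replicates 1, 2 and 3, against 266.7, 126.0 and 325.9 in the parent replicates. In these intensities the lowest ceh1 array, at 327.2, was just above the highest parent array, at 325.9. Parent replicate 3 lay above ceh1 replicates 1 and 2 after normalization, with a log2 signal of 8.78 against 8.54 and 8.49, so the genotypes then overlapped. The log2 fold change of OPCL1 was 0.89 ± 0.44 (SE), with a 95% interval from −0.13 to 1.91 (limma, adjusted p = 0.301). That interval spans both no change and a rise. It lay above 0 without normalization (0.26 to 2.00) and with array weights (0.38 to 2.06). The same held with the replicate block (0.41 to 1.37) and without parent replicate 3 (0.47 to 2.15). In the other alternatives it included 0, and none of these intervals is adjusted for the number of probe sets. The parent replicates of OPCL1 had an SD of 0.82 in log2, against a median SD of 0.24 over all tested probe sets. The value depended on single arrays, with 0.49 without parent replicate 2 and 1.31 without parent replicate 3 (limma, adjusted p = 0.637 and 0.0930, in a range from 0.0493 to 0.637 over all 17 alternatives, of which 1, the replicate block, was past the threshold).

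Of 23 listed genes for jasmonate synthesis, 4 had a single-gene probe set and 3 were bright enough to be tested. None of the 3 passed the test and 0 had an unadjusted p under 0.05 (limma), against 3.77% and 20.9% of all tested probe sets. With only 3 genes, counts of 0 do not set synthesis apart from those shares. The median log2 fold change of the 3 was 0.19, against −0.03 over all tested probe sets. AIM1, a beta-oxidation enzyme of the peroxisome, had intensities of 652.3, 844.9 and 914.2 in ceh1 and 785.0, 563.5 and 516.4 in the parent. After normalization its log2 fold change was 0.19, with a 95% interval from −0.15 to 0.52. AT1G70480, listed for export of OPDA from the plastid, had a log2 fold change of −0.10, with an interval from −0.48 to 0.28, and 0.16 without normalization. DGL, listed as a plastid lipase, was below the filter on dim probe sets, with intensities of at most 9.38 in ceh1 and 3.01 in the parent.

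OPCL1 lies in a run of related CoA ligase genes in the order of the genome annotation, after AT1G20490 and AT1G20500. AT1G20500 and AT1G20480 were below the filter, and AT1G20490 had a log2 fold change of −0.17, with a 95% interval from −1.13 to 0.79. Among 6 tested ligases of this type, OPCL1 included, 0 passed the test and 2 had an unadjusted p under 0.05 (limma), which 20.9% of all tested probe sets had. Their median log2 fold change was 0.02, against −0.03 over all tested probe sets. The tested ligase with the lowest p was 4CL8 (AT5G38120), at 0.95 ± 0.33 (SE) and an adjusted p of limma of 0.166. AT5G63380, the other with an unadjusted p under 0.05, went the other way. Its log2 fold change was −0.55, with a 95% interval from −1.04 to −0.07 (limma, adjusted p = 0.188).

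JMT was a dim probe set. Its intensity was 18.6, 6.92 and 30.02 in ceh1 replicates 1, 2 and 3, against 30.7, 11.1 and 2.57 in the parent replicates. The brightest array was parent replicate 1 and the dimmest parent replicate 3, so the ceh1 values lay within the range of the parent. JMT had a log2 fold change of 0.38 ± 0.70 (SE), with a 95% interval from −1.26 to 2.01 (limma, adjusted p = 0.811). A change of either sign within that interval could not be resolved with 3 arrays per genotype. The sign itself was not fixed, since the log2 fold change was −0.27 without parent replicate 3 and −0.0083 with array weights (limma, adjusted p = 0.829 and 0.994, in a range from 0.551 to 0.994 over the 13 alternatives in which JMT was tested). With a mean log2 signal of 4.07 in ceh1 and 3.70 in the parent, JMT lay close to the filter at 3.80.

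JMT belongs to the SABATH family of methyltransferases, which act on small acids of plant metabolism. Of 22 listed family genes 14 had a single-gene probe set, and 10 of these were below the filter. Among the 4 tested members, JMT included, 0 passed and 1 had an unadjusted p under 0.05 (limma), a share close to the 20.9% of all tested probe sets. Their median log2 fold change was 0.20, against −0.03 overall. The family member with the lowest p was AT3G21950, with a log2 fold change of −1.14 ± 0.39 (SE) and an adjusted p of limma of 0.161. BSMT1, which methylates benzoate and salicylate, was below the filter, with intensities of 1.07, 0.36 and 11.9 in ceh1 and 1.84, 2.95 and 6.14 in the parent.

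Inactivation by oxidation was represented by JRG21 and AT5G05600. JRG21 had intensities of 285.9, 462.8 and 633.5 in ceh1 replicates 1, 2 and 3, against 15.0, 4.20 and 1.65 in the parent replicates. Every ceh1 array was far above every parent array, and the parent values were near the floor set by the pseudocount. On each array the probe set can also be placed by the share of probe sets that are dimmer, which does not depend on scaling. That share was 85.8%, 87.9% and 91.7% for JRG21 in ceh1, against 31.7%, 16.4% and 11.2% in the parent. In log2, JRG21 rose by 5.77 ± 0.51 (SE), with a 95% interval from 4.58 to 6.96 (limma, adjusted p = 0.00242). Because its parent level was near the floor, the log2 fold change was 6.02 with a pseudocount of 1 and 4.88 with a pseudocount of 8, and it passed in both (limma, adjusted p = 0.00338 and 0.000714, in a range from 1.40e-08 to 0.0173 over all alternatives).

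AT5G05600 had intensities of 804.3, 1781 and 1517 in ceh1 replicates 1, 2 and 3, against 159.4, 103.3 and 87.3 in the parent replicates. The groups were again fully apart, and here the parent level was well above the floor. The share of dimmer probe sets was 95.4%, 97.4% and 97.1% in ceh1, against 70.8%, 66.6% and 67.4% in the parent. In log2, AT5G05600 rose by 3.29 ± 0.22 (SE), with a 95% interval from 2.78 to 3.80 (limma, adjusted p = 0.00089). Its parent replicates agreed within an SD of 0.14 in log2, and leaving out any single array gave log2 fold changes between 3.16 and 3.52. It had the 13th lowest p of all tested probe sets and the lowest of the 5 genes.

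AT2G38240 and AT3G11180 were listed with JRG21 and AT5G05600 as the other jasmonate oxygenases of Arabidopsis. AT2G38240 had intensities of 45.7, 119.1 and 95.9 in ceh1, against 10.6, 5.56 and 11.8 in the parent. It rose by 2.67 ± 0.38 (SE) in log2, with a 95% interval from 1.79 to 3.55 (limma, adjusted p = 0.0138). Without ceh1 replicate 2, ceh1 replicate 3 or parent replicate 1 the log2 fold change was still 2.42, 2.60 and 2.69, but it no longer passed, at adjusted p = 0.0532, 0.0711 and 0.0555 in limma. Over the 16 alternatives in which AT2G38240 was tested, which leave out the filter at the 50th percentile, the adjusted p of limma ran from 7.46e-05 to 0.0711. AT3G11180 was below the filter and not tested, with intensities of 7.28, 11.1 and 17.7 in ceh1 that overlapped the 3.69, 8.41 and 0.65 of the parent. JRG21 and AT2G38240 had parent means of 2.90 and 3.55 in log2, below the filter at 3.80, and so were tested only because of their level in ceh1. Without the filter both passed as well (limma, adjusted p = 0.00298 and 0.0204). Of 4 listed oxygenase genes with a single-gene probe set, 3 were thus tested and rose, a count that the filter helped to shape. In the whole list of 19 genes for conjugation and inactivation, 5 had a single-gene probe set and 4 were tested. Of these 4, the same 3 rose, 0 fell and JMT did not pass, against 2.62% rising and 1.15% falling over all tested probe sets. The median log2 fold change of the 4 was 2.98, against −0.03 over all tested probe sets.

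**Figure D2:**
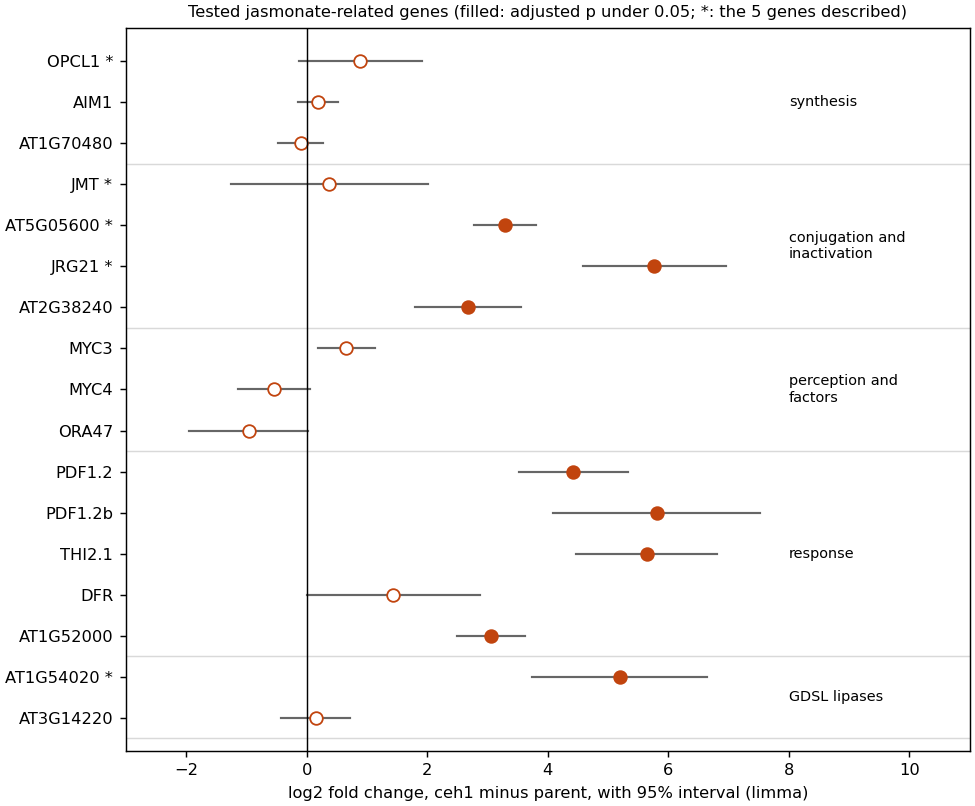
Log2 fold change (ceh1 minus parent) with its 95% interval from limma for every tested gene of the jasmonate lists and for 2 GDSL lipases, with asterisks at the 5 genes described and filled points at an adjusted p under 0.05. The 3 tested oxygenases, 4 of 5 response genes and AT1G54020 are filled, and the genes of synthesis and perception are open.

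The lipase gene AT1G54020 had intensities of 237.9, 536.6 and 1783 in ceh1 replicates 1, 2 and 3, against 23.9, 10.5 and 8.31 in the parent replicates. All ceh1 arrays were above all parent arrays, but they differed among themselves, with 7.49-fold between the brightest and the dimmest. The SD of its ceh1 replicates was 1.32 in log2, against a median of 0.29 and a 90th percentile of 0.67 over all tested probe sets. In log2, AT1G54020 rose by 5.19 ± 0.62 (SE), with a 95% interval from 3.73 to 6.65 (limma, adjusted p = 0.00748). Without ceh1 replicate 3, the brightest array for this gene, the log2 fold change was 4.46, and without ceh1 replicate 1, the dimmest, it was 5.78. It passed in both fits (limma, adjusted p = 0.00769 and 0.0127). It came closest to the threshold without parent replicate 2 (limma, adjusted p = 0.0455, the highest over all alternatives, the lowest being 3.49e-07).

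AT1G54020 lies between AT1G54010 and MVP1 (AT1G54030) in the order of the annotation, in a run of GDSL lipase genes. None of its 4 nearest protein-coding neighbours had a single-gene probe set. Around all 5 genes, 4 of the 20 nearest protein-coding neighbours could be tested. Of these 0 passed and 0 had an unadjusted p under 0.05 (limma), against 3.77% and 20.9% of all tested probe sets. AT3G55960, next to JRG21, had a log2 fold change of −0.28, and AT1G19620 and AT1G19650, on either side of JMT, had 0.43 and −0.39. Of 11 listed GDSL lipases 2 had a single-gene probe set and were tested. The other was AT3G14220, with intensities of 382.6, 359.7 and 639.8 in ceh1 and 466.3, 343.7 and 255.7 in the parent. Its log2 fold change was 0.15, with a 95% interval from −0.42 to 0.72 (limma, adjusted p = 0.779).

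Sizes of change were compared between the 5 genes by the difference of their log2 signals within each array. Of 10 pairs, 8 had differences that did not overlap between genotypes. Each of the 8 held JRG21, AT5G05600 or AT1G54020, which were already apart by genotype, so the count largely restates that. No share of such pairs over other probe sets was computed. An exact two-sided permutation test gave p = 0.1 for each of the 8 pairs, the smallest that 3 against 3 arrays allow. After Benjamini-Hochberg adjustment over the 10 pairs it was 0.125, so no pair could pass. The log2 rise of JRG21 exceeded that of AT5G05600 by 2.48 ± 0.59 (SE). With JRG21 near the floor in the parent, the size of that gap was set in part by the pseudocount, at 2.72 with a pseudocount of 1 and 1.64 with 8. The log2 change of JMT minus that of JRG21 was −5.39 ± 0.48 (SE), or −4.65 with a pseudocount of 8. That of OPCL1 minus that of JRG21 was −4.88 ± 0.92 (SE), or −4.01 with a pseudocount of 8. JRG21 and AT1G54020 differed by 0.58 ± 0.62 (SE) and OPCL1 and JMT by 0.51 ± 1.13 (SE), with arrays that overlapped (exact permutation test, p = 0.4 and 0.7).

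**Figure D3:**
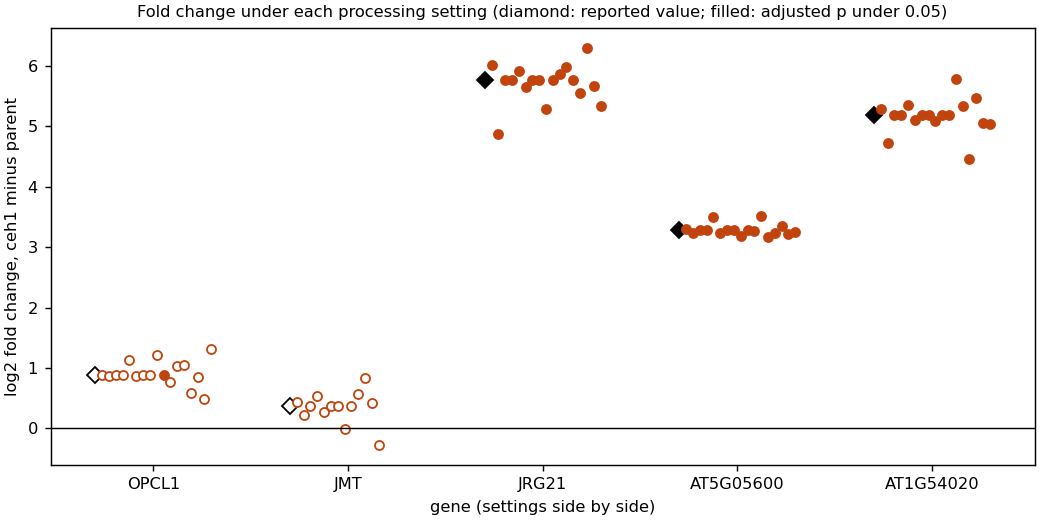
Log2 fold change (ceh1 minus parent) of the 5 genes under each processing setting, side by side within a gene, with a diamond for the reported value and filled symbols at an adjusted p under 0.05 in limma. JRG21, AT5G05600 and AT1G54020 are filled in every setting, OPCL1 in 1 and JMT in none.

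Genes of jasmonate perception and transcription were sparsely represented, with a single-gene probe set for 3 of 25 listed genes. COI1 and the JAZ genes had no such probe set, which does not mean that the array lacks them. None of the 3 passed the test and 1 had an unadjusted p under 0.05 (limma), against 20.9% of all tested probe sets. Their median log2 fold change was −0.54, against −0.03 over all tested probe sets. MYC3, a transcription factor that JAZ proteins repress, had intensities of 155.0, 289.3 and 269.3 in ceh1 and 160.2, 133.5 and 80.9 in the parent. After normalization its log2 fold change was 0.66, with a 95% interval from 0.19 to 1.13 (limma, adjusted p = 0.123). Its relative MYC4 had a log2 fold change of −0.54, with an interval from −1.13 to 0.06. ORA47, an activator of jasmonate synthesis genes, had intensities of 77.8, 123.5 and 77.0 in ceh1 and 125.7, 104.8 and 238.9 in the parent. Its log2 fold change was −0.96, with a 95% interval from −1.95 to 0.03 (limma, adjusted p = 0.252).

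In the list of jasmonate response genes, 5 of 17 had a single-gene probe set and all 5 were tested. Of these 4 rose and 0 fell, against 2.62% rising and 1.15% falling over all tested probe sets. All 5 had an unadjusted p under 0.05 (limma), against 20.9% of all tested probe sets. Their median log2 fold change was 4.43, against −0.03 over all tested probe sets. AT1G52000, which encodes a lectin-type protein, had intensities of 651.7, 904.9 and 1411 in ceh1, against 112.0, 113.0 and 70.5 in the parent, and rose by 3.06 ± 0.24 (SE) in log2 (limma, adjusted p = 0.0016). The defensin genes PDF1.2 and PDF1.2b and the thionin gene THI2.1 rose by 4.43, 5.80 and 5.64 in log2, and PDF1.2b was measured with a probe set whose suffix marks possible binding of similar transcripts. PDF1.2b too had a parent mean below the filter, at 3.40 in log2. Its log2 fold change was 5.02 without parent replicate 3, 6.53 without parent replicate 2 and 5.05 with a pseudocount of 8, and it passed in each (limma, adjusted p up to 0.0440 over all 17 alternatives). The 1 tested response gene that did not pass was DFR, an enzyme gene of anthocyanin synthesis, at 1.44 in log2 (limma, adjusted p = 0.237).

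The genes with profiles most like those of the 5 genes were sought by the root mean square difference between log2 signals over the 6 arrays, each centred on its mean. JRG21 was most like CHI, a chitinase gene, at 0.53 log2 units, followed by AT5G18470 at 0.59 and AT1G54020 at 0.68. AT5G05600 was most like AT5G52750, at 0.25, then AT5G64120, a peroxidase gene, at 0.29 and AT1G13470 at 0.31. AT1G54020 was most like AT3G01830, THI2.1 and AT5G52760, at 0.60, 0.61 and 0.66. These genes had log2 fold changes from 2.80 to 6.51, a direction that the choice by profile fixed. CHI, AT5G18470, AT1G13470, AT3G01830 and AT5G52760 had log2 signals below the filter at 3.80 on every parent array. They were therefore tested only because of their level in ceh1. The genes nearest to OPCL1 were AT1G04990, Hsp70-2 and AT1G09500, at 0.15, 0.15 and 0.19, and none of the 3 passed the test (limma, adjusted p from 0.275 to 0.308). For JMT they were GLC, AT1G31710 and TBL41, at 0.28, 0.37 and 0.41.

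**Figure D4:**
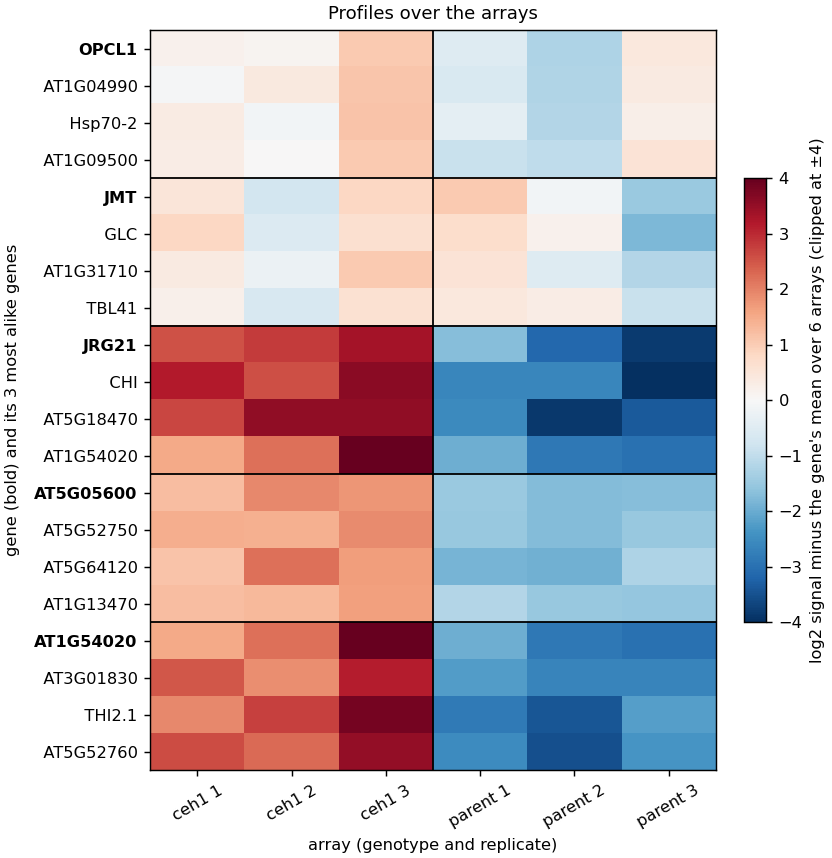
Log2 signal minus the gene's mean over the 6 arrays (colour, clipped at 4 in either direction) for the 5 genes in bold and the 3 named genes most like each, with ceh1 arrays in the left columns and parent arrays in the right ones. JRG21, AT5G05600 and AT1G54020 and their nearest genes split by genotype, while OPCL1 is high in parent replicate 3 and JMT low in ceh1 replicate 2 as well as in parent replicate 3.

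Other measures were also compared between the genotypes, and none of those tested passed. The part of any of these measures in the rises of JRG21, AT5G05600 and AT1G54020 was not tested. The 25S ribosomal RNA signal ranged from 1132 to 4598 in ceh1, against 293.7 to 985.4 in the parent. The log2 ratio of 3' to 5' actin signal averaged 4.08 in ceh1 and 4.37 in the parent. Exact two-sided permutation tests gave p = 0.1 for both, the smallest that 3 against 3 arrays allow. PYK10, the 1 root marker of 6 with a single-gene probe set, had intensities of 1195 to 1862 in ceh1 and 289.9 to 857.8 in the parent. It did not pass (limma, adjusted p = 0.0733). All 5 green tissue markers tested were bright, with intensities from 1907 to 6901 in ceh1 and from 2691 to 8856 in the parent, and log2 fold changes from −0.79 to −0.09, of which 0 passed and 3 had an unadjusted p under 0.05 (limma), against 20.9% of all tested probe sets. SAG29, the 1 senescence marker of 4, had a log2 fold change of −2.04 (limma, adjusted p = 0.213). The 7 flower and seed markers and the 6 morning clock genes had no single-gene probe set. GI, the 1 evening clock gene of 8, overlapped between genotypes, at 178.3, 614.0 and 451.6 in ceh1 and 211.0, 160.5 and 566.5 in the parent. With GI as a covariate the log2 rises of JRG21, AT5G05600 and AT1G54020 were 5.87, 3.27 and 5.19.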

How the data were processed

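The authors deposited linear probe set intensities made with MAS5 per the submitters' processing notes, with version, settings and detection calls not given in the sources used here. RNA (4 µg) was labelled as biotinylated cRNA, per the labels' protocols. Of 22810 probe sets, 64 controls were set aside, 13513 of the remaining 22746 had 1 gene in the platform annotation, 503 had several and 8730 had none in the table used, and 13436 of the 13513 matched the TAIR10.1 gene table, used for names and gene order only. No coordinates or sequences are given, since no genome build is named in the labels.

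Values were transformed as log2(intensity + 2) and quantile normalised, and the 30% of probe sets with the lowest means, below 3.80, were left out. The 15922 left, 8749 of them named, entered 1 fit in limma 3.58.1 (R 4.3.3, eBayes with a variance trend, two-sided, Benjamini-Hochberg adjustment over all of them, threshold 0.05). Single values were compared by exact permutation. For arrays, their number limits the precision. A gene with several probe sets was represented by the brightest. The 5 genes, the lists and the settings were chosen with earlier results of these data known. Genes named were the 5, every gene of synthesis, conjugation and perception with a single-gene probe set, passing genes of other lists or else the one with the lowest p, and the 3 most alike genes. Others named, such as DFR, AT3G14220, AT1G20490, BSMT1 and the marker genes, were chosen after their values were seen. A search for promoter motifs, foreseen at first, was not made. Alternatives were no filter or a stricter one at the 50th percentile, pseudocounts of 1 and 8, median scaling, no normalization, eBayes without trend or robust, array weights, a replicate block, an evening gene covariate and each array left out.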

Additional observations from a re-analysis of the deposited data

How the results depend on the processing

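The rises of JRG21, AT5G05600 and AT1G54020 kept their direction and stayed past the threshold in all 17 alternatives. Leaving out 1 array gave log2 fold changes from 5.34 to 6.30 for JRG21, from 3.16 to 3.52 for AT5G05600 and from 4.46 to 5.78 for AT1G54020. OPCL1 ranged from 0.49 to 1.31 with 1 array left out. JMT ranged from −0.27 to 0.84 in the 3 such fits in which it was bright enough to be tested, and its value was −0.0083 with array weights. A filter at the 50th percentile removed it. Same-numbered ceh1 and parent arrays had correlations of 0.27, 0.057 and 0.47 between their deviations from the group means, and not every array correlated best with its own number. ceh1 replicate 1 correlated best with parent replicate 2, at 0.34, and had −0.39 with parent replicate 3. ceh1 replicate 3 had −0.34 and −0.40 with parent replicates 1 and 2. The main fit did not treat the numbers as pairs, and whether same-numbered plants shared a batch or day was not tested. With the replicate block OPCL1 passed at the same log2 fold change of 0.89 (limma, adjusted p = 0.0493), which made 1 of 3 tested synthesis genes and 1 of 6 tested ligases. The block gave 1160 changed probe sets, against 600 without it. That count was 384 with the filter at the 50th percentile, where fewer probe sets were tested, 1815 with array weights and 933 with the evening gene covariate. With 1 array left out it ranged from 152 to 676, being 296 without ceh1 replicate 2, 175 without ceh1 replicate 3, 168 without parent replicate 1 and 152 without parent replicate 2, each with fewer arrays. Among other genes of the lists, log2 fold changes near 0 changed sign in 11 cases. Without normalization these were 0.16 for AT1G70480, 0.12 for AT1G20490 and 0.12 for AT4G19010, with array weights 0.15 for AT4G19010, and with the covariate −0.0058 for AT4G36470. With 1 array left out AT1G20490 ranged from −0.38 to 0.21, AT4G19010 from −0.35 to 0.15, AT4G36470 from −0.14 to 0.49 and AT3G14220 from −0.059 to 0.40. DFR passed with the covariate (limma, adjusted p = 0.0327, in a range up to 0.452). Causes of these shifts beyond the number of probe sets or arrays were not tested.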
